A study of Homo sapiens with 24 samples.

Results

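The genes described here are 10 direct transcriptional targets of Wnt and beta-catenin signalling: AXIN2, NKD1, RNF43, ZNRF3, LGR5, ASCL2, SOX9, TCF7, LEF1 and CD44. They were taken by their symbol in the array's platform annotation, with the brightest probe set standing for each gene, where brightest means the highest mean over all arrays. Of the 10 listed genes, 9 were measured among the 18239 genes of the series. TCF7 was not analysed here.

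Total RNA of HCT116 cells, a human colon cancer line, was measured on 24 Affymetrix expression arrays, with 3 arrays in each of 8 groups. The ESR2+ cells formed 4 groups: hypoxia with 10 nM 17beta-estradiol, hypoxia without it, normoxia with 10 nM estradiol, and normoxia without it. The WT cells, which were not transduced, formed the same 4 groups. Per the labels' protocols, ESR2+ cells carried a lentiviral full-length ESR2 (estrogen receptor beta) with an N-terminal HaloTag, were selected with puromycin, and were mostly positive for the GFP of the same vector. They are thus a selected pool, and a vector-only control is not analysed here. Hypoxia was made in an incubator flushed with nitrogen and CO2, and its length is not given in the sources used here. Cells received estradiol in stripped serum and medium free of phenol red. The medium of the untreated groups is not given in the sources used here, so estradiol and its medium cannot be told apart. Whether the 3 arrays of a group came from separate cultures is not stated in the labels. The p-values therefore rest on the spread among these arrays alone, and that spread may be technical.

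In the canonical Wnt pathway, a Wnt ligand binds a Frizzled receptor with LRP5 or LRP6, the destruction complex of APC, AXIN and GSK3 is inhibited, and beta-catenin accumulates and activates genes together with TCF/LEF factors. Several of the targets feed back on the pathway: AXIN2 rebuilds the destruction complex, NKD1 binds Dishevelled, and RNF43 and ZNRF3 are ubiquitin ligases that remove Frizzled from the cell surface. In the intestinal crypt the same signal maintains stem cells marked by LGR5 and ASCL2. HCT116 cells carry an activating mutation of the beta-catenin gene, so that the pathway is active in these cells without a ligand.

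The deposited values are log2 signals, so that a difference of 1 is a doubling of the signal. Changes were tested with limma over all genes, and a gene was called where its Benjamini-Hochberg adjusted p was below 0.05. Levels of different genes are not compared, since probe sets differ in how strongly they bind. The transduced ESR2 was higher in ESR2+ than in WT cells by 1.05 ± 0.13 (log2, SE) in normoxia (limma adjusted p = 6.44e-06) and by 0.64 ± 0.13 in hypoxia without estradiol (limma adjusted p = 0.000411). Of its 8 probe sets 4 were called higher in each of these comparisons (7.65% of every probe set in normoxia and 17.7% in hypoxia). With estradiol ESR2 was higher by 0.97 ± 0.13 in normoxia (limma adjusted p = 1.49e-05), with 4 of 8 probe sets called higher (8.45% of all genes). In hypoxia with estradiol it was higher by 0.46 ± 0.13 (limma adjusted p = 0.00608), with 1 of 8 called higher (27.8% of all genes). Within ESR2+ cells without estradiol hypoxia changed ESR2 by -0.44 ± 0.13 (limma adjusted p = 0.0124), with 4 of 8 called lower (18.2% of all genes). Of 10 epithelial markers, EPCAM, KRT8, KRT18 and KRT19 lay at or above percentile 91.9 of all genes, and CDH1 (74.2), CLDN4 (73.1) and CDX2 (62.2) lay above the middle. GPA33 (47.8), LGALS4 (31.3) and VIL1 (16.9), genes of differentiated intestinal cells, lay below it.

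The hypoxic ESR2+ group with estradiol stood apart from the rest. Its control probe sets had a 3' minus 5' index (the excess of signal from the 3' ends of RNA, in log2) of 3.42 to 4.01, against 2.00 to 3.10 on all other arrays but 1. That other array was WT normoxia replicate 2, with an index of 4.34, and its lowest correlation with an array of its own group was 0.9882. The index is a mean over control probe sets for ACTB and for the bacterial control transcripts dap and thr. It is therefore not a measure of the cells' RNA alone. In the same ESR2+ group the mean level of 7 leukocyte markers was 4.05 to 4.15, against 3.56 to 3.85 on the other arrays, and that of 8 embryonic kidney markers was 4.01 to 4.05, against 3.73 to 3.88. The mean of 8 fibroblast markers was 3.24 to 3.32 in that group, against 3.13 to 3.25 on the other arrays. Over the series the 7 measured leukocyte markers lay between percentiles 4.2 (PTPRC) and 58.6 (CD68) of all genes, with CD14 at 4.7, LYZ at 24.6, CD79A at 36, CD3E at 36.8 and TYROBP at 37.5. The part of these differences in the results was not tested beyond fits with the index as a covariate and fits without 1 array.

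For 4 of the 10 genes RefSeq start sites were matched to promoter windows, here the 250 bases before the start on the GRCh38.p14 assembly. CD44 is shown because it was higher in hypoxia in all 4 comparisons of hypoxia with normoxia, and RNF43 because its probe sets went different ways. Capitals mark the core motif bound by hypoxia-inducible factors (ACGTG or GCGTG, on either strand).
CD44, chr11:35138921-35139170, plus strand: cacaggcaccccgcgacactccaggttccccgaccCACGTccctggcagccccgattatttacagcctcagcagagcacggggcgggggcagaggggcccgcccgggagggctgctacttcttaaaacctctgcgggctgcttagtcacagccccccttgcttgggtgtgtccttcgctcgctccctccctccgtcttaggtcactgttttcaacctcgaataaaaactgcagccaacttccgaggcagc
RNF43, chr17:58417535-58417784, minus strand: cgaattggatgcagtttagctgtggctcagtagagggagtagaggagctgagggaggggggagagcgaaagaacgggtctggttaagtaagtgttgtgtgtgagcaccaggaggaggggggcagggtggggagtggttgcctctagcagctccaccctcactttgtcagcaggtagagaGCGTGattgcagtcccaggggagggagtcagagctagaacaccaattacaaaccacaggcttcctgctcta
RNF43, second start, chr17:58402722-58402971, minus strand: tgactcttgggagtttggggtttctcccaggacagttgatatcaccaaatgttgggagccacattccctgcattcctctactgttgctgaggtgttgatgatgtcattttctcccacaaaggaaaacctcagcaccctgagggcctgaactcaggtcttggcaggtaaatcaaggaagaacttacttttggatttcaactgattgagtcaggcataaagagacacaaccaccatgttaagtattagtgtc
The CD44 window held 1 core motif, 215 bases before the start, and the window of the first RNF43 start held 1, 71 bases before it. The window of the second RNF43 start held none. Of 35116 RefSeq windows of this length, 43.2% held the core motif. The TCF/LEF motif (NNCAAAG with either A or T at both N, on either strand) was in none of these 3 windows and in 12.0% of all windows. Of the other 3 matched windows, 1 of the 2 of TCF7 (chromosome 5, 134123368 to 134123617) held it, 50 bases before the start, and that of LEF1 did not. The consensus palindrome of the estrogen response element was in none of the 3 windows and in 0.0399% of all windows. A match is a description of the letters and not a bound site.

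**Figure D1:**
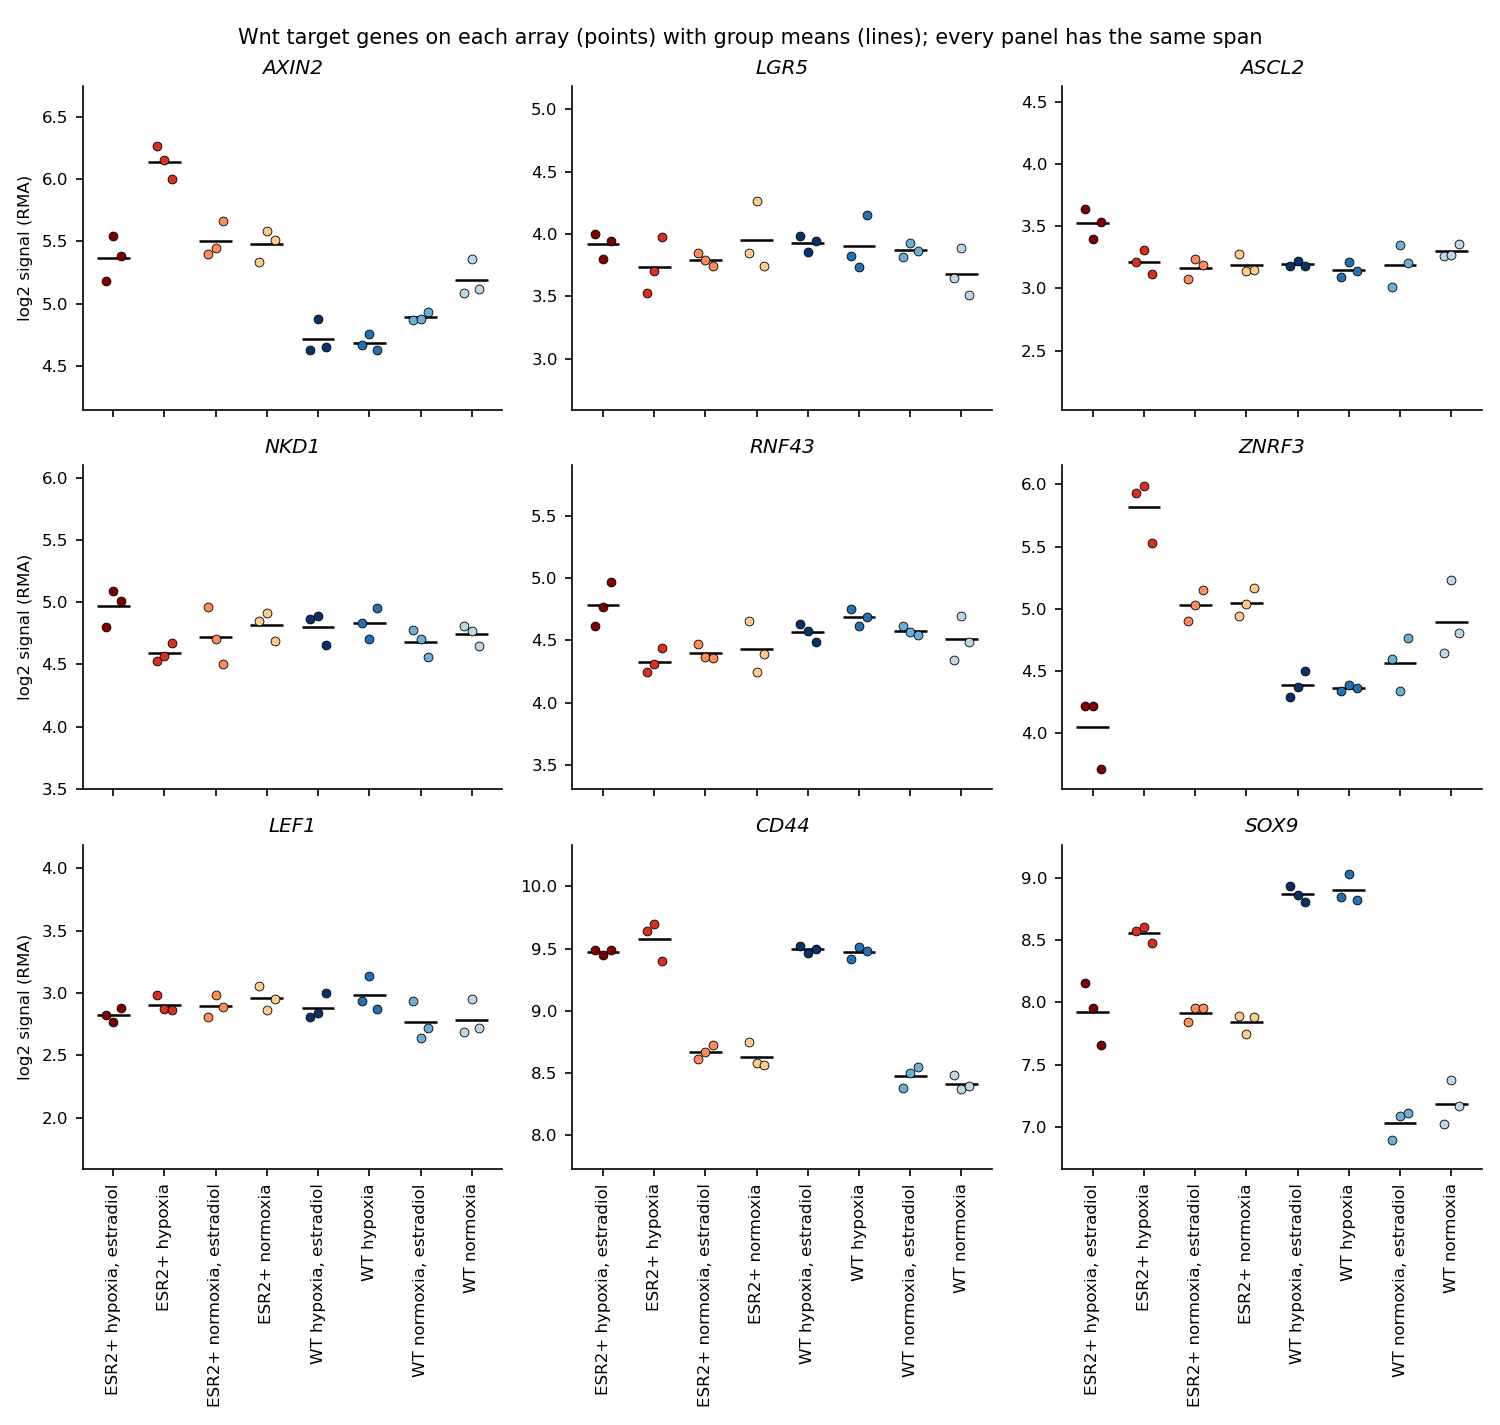
Log2 signal of the 9 measured target genes on every array (points) with the group means (lines), for the 8 groups along the x axis; each panel has its own log2 axis of the same length. AXIN2 and ZNRF3 peak in hypoxic ESR2+ cells without estradiol, CD44 separates hypoxia from normoxia in both kinds of cells, and LGR5, ASCL2, NKD1, RNF43 and LEF1 vary little across the groups.

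AXIN2 and ZNRF3, both negative feedback regulators, rose in hypoxic ESR2+ cells and fell in hypoxic WT cells where no estradiol was given. In RNA of whole cultures, fewer cells that express a gene and less of its RNA per cell cannot be told apart. AXIN2 (chromosome 17, 65528563 to 65561648, GRCh38.p14) had a log2 signal of 6.27, 6.15 and 6.0 in hypoxic ESR2+ cells, against 5.33, 5.58 and 5.51 in normoxic ESR2+ cells. In WT cells it had 4.66, 4.75 and 4.63 in hypoxia, against 5.09, 5.35 and 5.12 in normoxia. The groups did not overlap in either kind of cell, and the hypoxic ESR2+ arrays were the highest of all 24 arrays. AXIN2 was 1.58-fold higher in hypoxia in ESR2+ cells (limma log2 change 0.66 ± 0.10, adjusted p = 1.53e-05) and 1.42-fold lower in hypoxia in WT cells (log2 change -0.50 ± 0.10, limma adjusted p = 0.000216). The difference between these 2 responses, the interaction, was 1.17 ± 0.14 on the log2 scale (limma adjusted p = 9.19e-07).

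ZNRF3 (chromosome 22, 28883572 to 29057488) had a log2 signal of 5.93, 5.99 and 5.53 in hypoxic ESR2+ cells, against 4.94, 5.04 and 5.17 in normoxic ESR2+ cells. In WT cells it had 4.34, 4.39 and 4.37 in hypoxia, against 4.64, 5.23 and 4.80 in normoxia. The hypoxic ESR2+ arrays were again above all others, and the hypoxic WT arrays lay below the normoxic WT arrays. ZNRF3 was 1.70-fold higher in hypoxia in ESR2+ cells (limma log2 change 0.76 ± 0.15, adjusted p = 0.000255) and 1.44-fold lower in hypoxia in WT cells (log2 change -0.53 ± 0.15, limma adjusted p = 0.00538). The interaction was 1.29 ± 0.21 (limma adjusted p = 3.65e-05). The fall in WT cells rested in part on WT normoxia replicate 2: without it the change was -0.36 (limma adjusted p = 0.0541), and with the index as a covariate it was -0.37 (limma adjusted p = 0.0808).

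Set directly against WT cells in hypoxia without estradiol, ESR2+ cells had 2.75-fold more AXIN2 signal (limma log2 difference 1.46 ± 0.10, adjusted p = 4.88e-11) and 2.73-fold more ZNRF3 signal (1.45 ± 0.15, limma adjusted p = 2.70e-08). In normoxia the AXIN2 difference was 0.29 ± 0.10 (limma adjusted p = 0.0461), the groups overlapped, and the call was lost without WT replicate 1 or 3 or ESR2+ replicate 2 or 3 (limma adjusted p between 0.113 and 0.186). ZNRF3 was not called in normoxia without estradiol. With estradiol in normoxia AXIN2 was higher in ESR2+ cells by 0.61 ± 0.10 (limma adjusted p = 0.000141) and ZNRF3 by 0.46 ± 0.15 (limma adjusted p = 0.0379). That ZNRF3 call was lost without WT replicate 1 or 2 or ESR2+ replicate 2 or 3 (limma adjusted p between 0.0853 and 0.199). The remaining 2 AXIN2 probe sets were dim, with group means of 2.76 to 3.07, and neither was called in hypoxia in either kind of cell. ZNRF3 had 1 probe set.

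NKD1 and RNF43, the other feedback inhibitors, moved little on their brightest probe sets, but their probe sets disagreed. NKD1 (chromosome 16, 50548396 to 50649249) lay between 4.50 and 5.09 on all 24 arrays and was not called for hypoxia in either kind of cell. A dimmer NKD1 probe set, 11733327_at, averaged 4.59 ± 0.25 in hypoxic ESR2+ cells and 4.08 ± 0.07 in normoxic ESR2+ cells (SD, n = 3 each), a rise of 0.51 ± 0.13 (SE, limma adjusted p = 0.00437 over all probe sets). It also gave an interaction of 0.66 ± 0.18 (limma adjusted p = 0.0100), while the brightest NKD1 probe set gave -0.32 ± 0.15 (limma adjusted p = 0.109 over all genes).

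RNF43 (chromosome 17, 58352500 to 58417534) had a log2 signal of 4.24, 4.31 and 4.44 in hypoxic ESR2+ cells, against 4.75, 4.62 and 4.69 in hypoxic WT cells. This was a fall of 1.28-fold (log2 difference -0.36 ± 0.10, limma adjusted p = 0.00635 over all genes). Of its 6 probe sets, 2 went the other way in the same comparison, where 17.7% of every probe set were called higher: 11756284_x_at was higher by 0.38 ± 0.10 (limma adjusted p = 0.00337 over all probe sets) and 11720450_a_at by 0.54 ± 0.11 (limma adjusted p = 0.000312). In normoxia these 2 probe sets were higher in ESR2+ cells by 1.10 ± 0.10 (limma adjusted p = 6.45e-08) and 0.60 ± 0.11 (limma adjusted p = 0.000456), while the brightest differed by -0.08 ± 0.10. No direction for the gene as a whole can therefore be given between ESR2+ and WT cells. The x_at suffix marks probe sets that may also bind other transcripts.

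**Figure D2:**
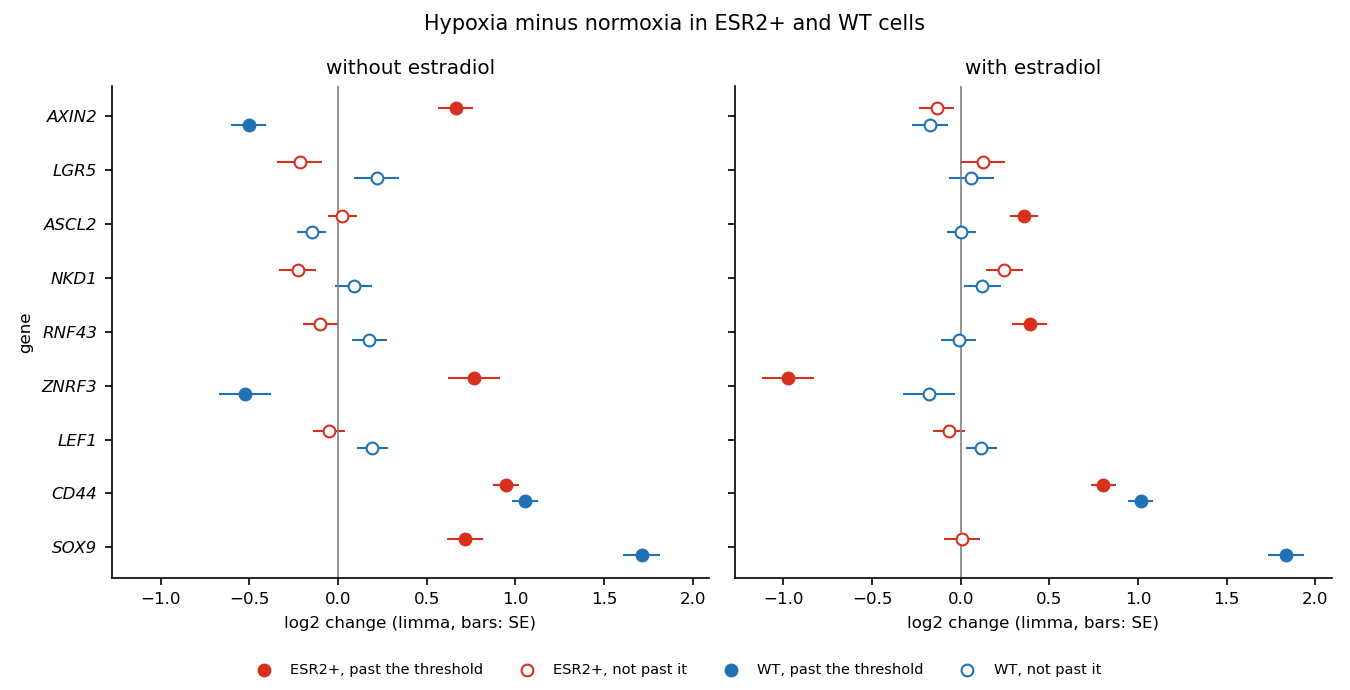
Log2 change in hypoxia of the 9 genes (x axis, hypoxia minus normoxia, bars are SE) in ESR2+ cells (red) and WT cells (blue), without estradiol on the left and with it on the right; filled points passed the limma threshold. Without estradiol AXIN2 and ZNRF3 lie right of zero in ESR2+ cells and left of it in WT cells, and CD44 lies near 1 in both.

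CD44, a cell surface receptor for hyaluronan and a marker of colon cancer stem cells, rose in hypoxia in both kinds of cells. CD44 (chromosome 11, 35139171 to 35232402) had a log2 signal of 9.64, 9.69 and 9.40 in hypoxic ESR2+ cells, against 8.75, 8.58 and 8.57 in normoxic ESR2+ cells. In WT cells it had 9.41, 9.51 and 9.48 in hypoxia, against 8.48, 8.37 and 8.39 in normoxia. No hypoxic array overlapped a normoxic one. The rise was 1.93-fold in ESR2+ cells (limma log2 change 0.95 ± 0.07, adjusted p = 6.68e-10) and 2.08-fold in WT cells (1.06 ± 0.07, limma adjusted p = 2.58e-11), and the interaction of -0.11 ± 0.10 was not called (limma adjusted p = 0.466). With estradiol the rises of this brightest probe set were 0.80 ± 0.07 in ESR2+ cells (limma adjusted p = 1.88e-09) and 1.01 ± 0.07 in WT cells (limma adjusted p = 6.30e-11).

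All 10 CD44 probe sets were called higher in hypoxia without estradiol in both kinds of cells, by 0.41 to 0.95 in ESR2+ cells and by 0.98 to 1.47 in WT cells. Over every probe set of the array, 13.1% were called higher in ESR2+ cells and 15.3% in WT cells. The interaction was called lower for 7 of the 10, at -0.51 to -0.75, and for none higher, whereas 11.5% of every probe set were called lower. Between ESR2+ and WT cells in hypoxia the brightest CD44 probe set differed by 0.11 ± 0.07 (limma adjusted p = 0.236 over all genes; without ESR2+ replicate 3 it was 0.20, limma adjusted p = 0.0258), but 7 others were lower in ESR2+ cells, at -0.77 to -1.11, where 17.4% of every probe set were called lower. The second brightest, 11715917_a_at, averaged 8.54 ± 0.28 in hypoxic ESR2+ cells and 9.50 ± 0.08 in hypoxic WT cells (SD, n = 3 each), a difference of -0.96 ± 0.10 (SE, limma adjusted p = 4.41e-08 over all probe sets). In normoxia 5 CD44 probe sets were lower in ESR2+ cells (6.96% of every probe set) and 1, the brightest, was higher (7.65%). That difference of 0.22 (limma adjusted p = 0.0381 over all genes) was lost with the index as a covariate (limma adjusted p = 0.0592). It was also lost without WT replicate 2 or 3 or ESR2+ replicate 1 or 2, with values of 0.16 to 0.24 (limma adjusted p between 0.0561 and 0.202). Which transcripts of CD44 the 10 probe sets detect was not tested. With estradiol 9 of the 10 were called higher in hypoxic ESR2+ cells (0.36 to 2.17) and 10 in WT cells (0.54 to 1.24). Of all genes 29.6% and 16.1% were called higher. The interaction with estradiol was called higher for 5 and lower for 0 (20.6% and 18.1% of all genes). Against hypoxic WT cells with estradiol, 3 were higher and 2 lower in ESR2+ cells (27.8% and 19.8%), at -0.38 to 1.44. The hypoxic rise without estradiol thus held for every probe set, while the sign of the difference between ESR2+ and WT cells depended on which one was read.

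**Figure D3:**
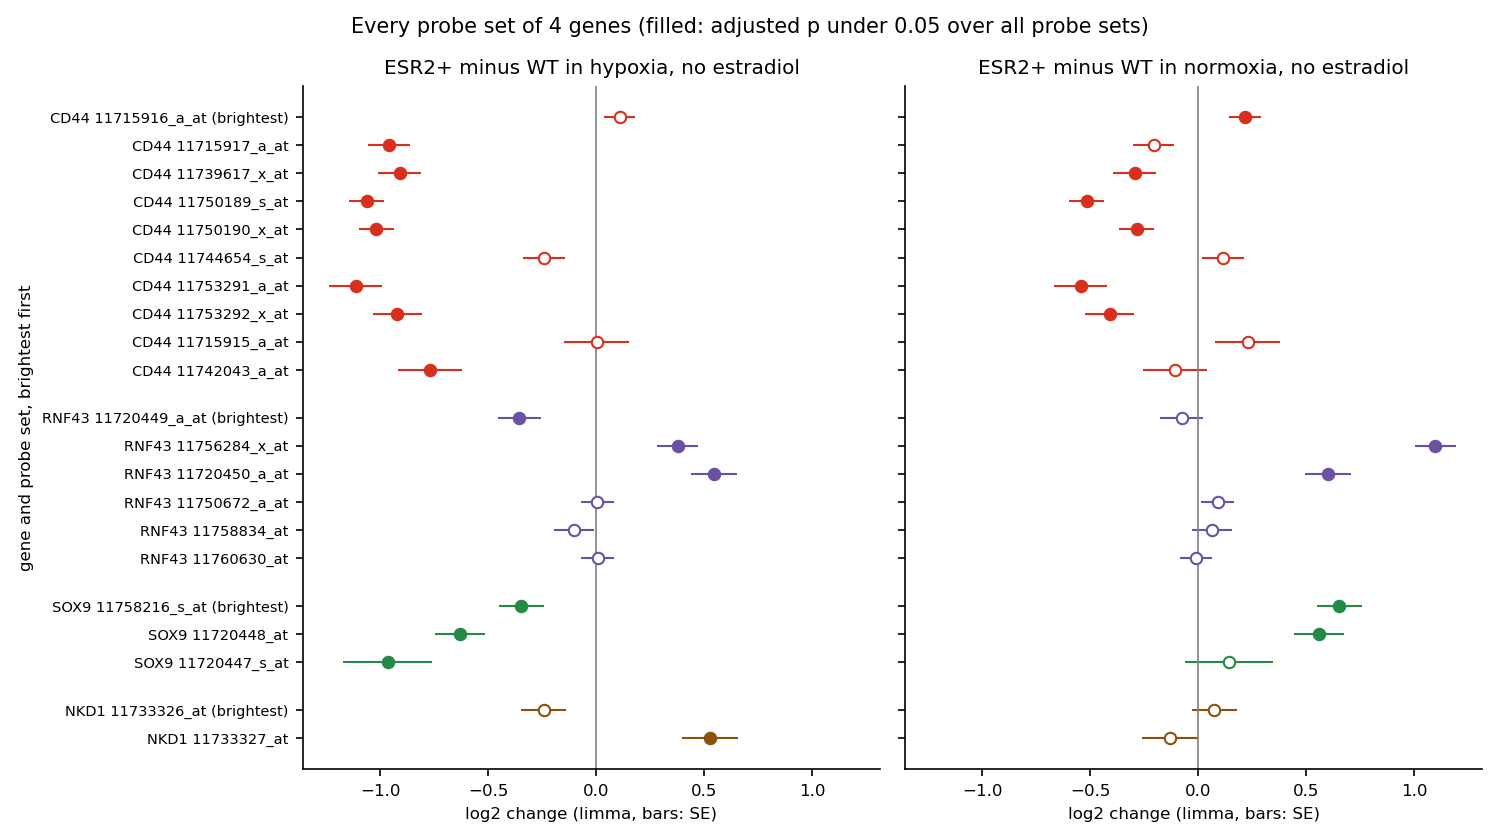
Log2 difference of ESR2+ minus WT cells without estradiol (x axis, bars are SE) for every probe set of CD44, RNF43, SOX9 and NKD1, in hypoxia on the left and normoxia on the right; filled points have a limma adjusted p under 0.05 over all probe sets. In hypoxia 7 CD44 probe sets lie below zero while the brightest does not, and 2 RNF43 probe sets lie opposite to the brightest.

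**Figure D4:**
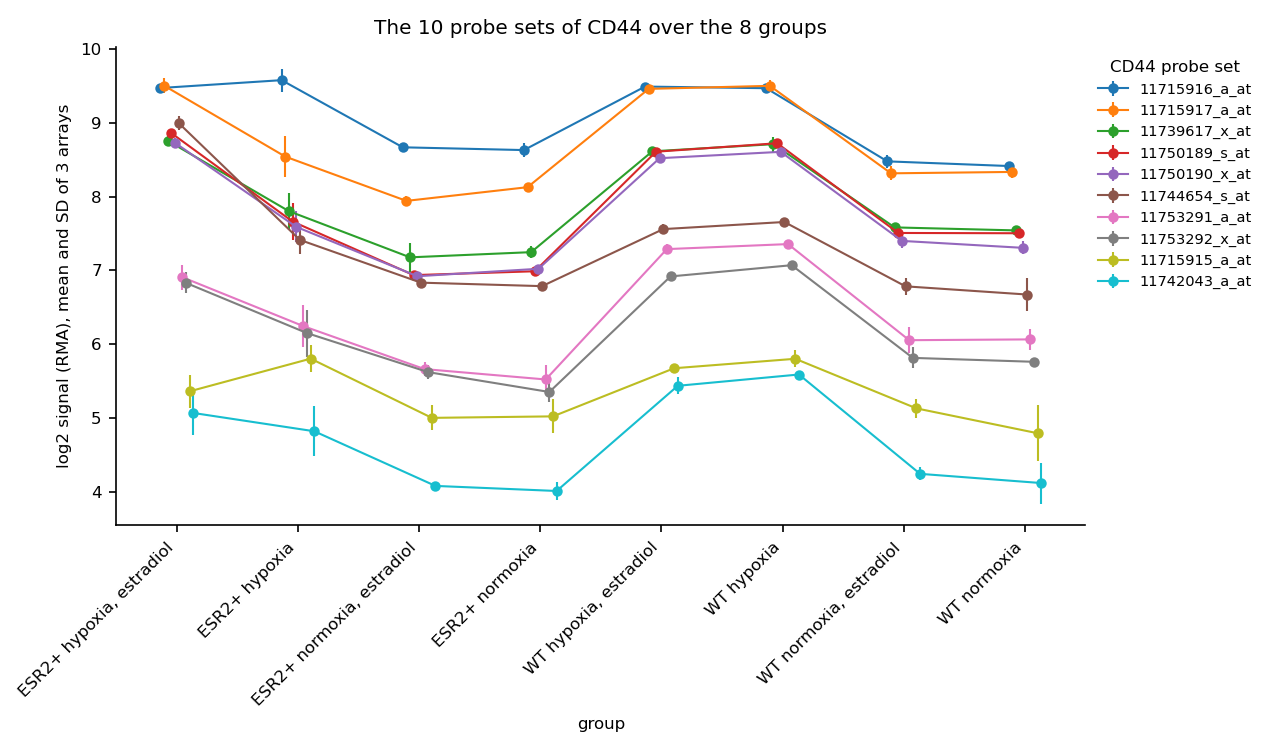
Mean log2 signal and SD (n = 3) of the 10 CD44 probe sets in the 8 groups (x axis). All 10 are higher in hypoxia than in normoxia without estradiol in both kinds of cells, and 7 lie lower in hypoxic ESR2+ than in hypoxic WT cells.

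SOX9, a transcription factor of crypt progenitors and stem cells, had the largest hypoxic change of the 9 genes in WT cells. SOX9 (chromosome 17, 72121020 to 72126416) had a log2 signal of 8.57, 8.61 and 8.48 in hypoxic ESR2+ cells, against 7.89, 7.75 and 7.88 in normoxic ESR2+ cells. In WT cells it had 8.85, 9.03 and 8.82 in hypoxia, against 7.02, 7.37 and 7.17 in normoxia. The groups did not overlap, and the normoxic WT arrays lay below every ESR2+ array. The rise was 1.64-fold in ESR2+ cells (limma log2 change 0.72 ± 0.10, adjusted p = 8.03e-06) and 3.28-fold in WT cells (1.71 ± 0.10, limma adjusted p = 2.76e-12), with an interaction of -1.0 ± 0.15 (limma adjusted p = 1.09e-05). SOX9 was higher in ESR2+ than in WT cells in normoxia, by 0.65 ± 0.10 (limma adjusted p = 8.36e-05), and lower in hypoxia, with a difference of -0.35 ± 0.10 (limma adjusted p = 0.00947). The call in hypoxia was lost without WT hypoxia replicate 2 (-0.28, limma adjusted p = 0.0588). Its 3 probe sets were all called higher in hypoxic WT cells without estradiol, by 1.58 to 1.96 (15.3% of every probe set). All had a called negative interaction (11.5% called lower), and all were called lower in ESR2+ than in WT cells in hypoxia (17.4%). In hypoxic ESR2+ cells 2 of the 3 were called higher (13.1%).

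LGR5, the R-spondin receptor that marks intestinal stem cells, ASCL2, a transcription factor of these cells, and LEF1, a nuclear partner of beta-catenin, were dim and were not called for hypoxia without estradiol. LGR5 (chromosome 12, 71439129 to 71586310) lay between 3.51 and 4.27 on all arrays, at the 35.4th percentile of all genes. ASCL2 (chromosome 11, 2268498 to 2270588) lay between 3.01 and 3.64, at the 21.6th percentile. LEF1 (chromosome 4, 108047548 to 108168932) lay between 2.64 and 3.14, at the 10.6th percentile. On their brightest probe sets LGR5 and LEF1 were called in none of the 16 comparisons. Of the 9 LEF1 probe sets, 1 was called higher in hypoxia with estradiol, in WT cells and likewise in ESR2+ cells. Of all genes, 16.1% were called higher there in WT cells and 29.6% in ESR2+ cells. For estradiol in hypoxic ESR2+ cells 1 of the 9 was called higher (28.3% of every probe set). The interaction of hypoxia and ESR2 with estradiol was also called higher for 1 of the 9 (20.6% of all genes). Shares of every probe set are not given here for hypoxia with estradiol or for this interaction. Without WT normoxia replicate 2, the rises of LEF1 by 0.28 (limma adjusted p = 0.0182) and of RNF43 by 0.27 (limma adjusted p = 0.0389) in hypoxic WT cells were called. Without the same array LGR5 had an interaction of -0.54 (limma adjusted p = 0.0244), LEF1 one of -0.33 (limma adjusted p = 0.0437) and RNF43 one of -0.37 (limma adjusted p = 0.0413). With all arrays the LGR5 interaction was -0.43 (limma adjusted p = 0.0704), and it was also called without WT hypoxia replicate 2, ESR2+ normoxia replicate 3 or ESR2+ hypoxia replicate 3 (limma adjusted p between 0.0207 and 0.0421). With the index as a covariate, LEF1 (0.31, limma adjusted p = 0.0129) and RNF43 (0.33, limma adjusted p = 0.0128) were called higher in hypoxic WT cells, and the RNF43 interaction was -0.32 (limma adjusted p = 0.0498).

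Counted together, 4 of the 9 measured genes rose and 0 fell in hypoxic ESR2+ cells without estradiol, where limma called 32.6% of all genes (14.4% higher and 18.2% lower). In hypoxic WT cells 2 rose and 2 fell, and 37.5% of all genes were called (16.4% higher and 21.2% lower). With estradiol, hypoxia raised 3 and lowered 1 in ESR2+ cells, with 52.3% of all genes called (29.6% higher and 22.6% lower). In WT cells with estradiol it raised 2 and lowered 0, with 34.8% called (16.1% higher and 18.7% lower). ESR2+ cells had 3 genes higher and 0 lower than WT cells in normoxia without estradiol, with 18.6% of all genes called (9.76% higher and 8.86% lower). With estradiol in normoxia 3 were higher and 0 lower, with 13.7% called (8.45% higher and 5.22% lower). In hypoxia without estradiol 2 were higher and 2 lower, with 40.4% called (20.4% higher and 20% lower). In hypoxia with estradiol 2 were higher and 1 lower, with 47.7% called (27.8% higher and 19.8% lower). The interaction of hypoxia and ESR2 was called for 2 genes higher and 1 lower without estradiol, against 30.7% of all genes (16.4% higher and 14.3% lower). With estradiol it was called for 2 higher and 2 lower, against 38.6% of all genes (20.6% higher and 18.1% lower). The median log2 change of the 9 genes in hypoxia was 0.03 in ESR2+ cells, against -0.06 for all genes, and 0.18 in WT cells, against 0.00 for all genes. Most of these counts lay near the shares of all genes, and nothing is read from them about the 9 genes as a group.

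No target gene was called for estradiol outside hypoxic ESR2+ cells. By limma, 0 of 9 were called in normoxic ESR2+ cells (0% of all genes called), in hypoxic WT cells (0.0164% called) and in normoxic WT cells (0.011% called). At an unadjusted p under 0.05 the counts were 0, 0 and 2 of the 9 genes. In hypoxic ESR2+ cells 6 of the 9 were called, 3 higher and 3 lower, against 57% of all genes (35.4% higher and 21.6% lower), and the median of all genes moved by 0.12 on the log2 scale. ZNRF3 had 4.22, 4.22 and 3.72 in hypoxic ESR2+ cells with estradiol, against 5.93, 5.99 and 5.53 without it, a change of -1.76 ± 0.15 (limma adjusted p = 7.78e-10). AXIN2 had 5.18, 5.54 and 5.38 with estradiol, against 6.27, 6.15 and 6.0 without it, a change of -0.77 ± 0.10 (limma adjusted p = 8.41e-07). SOX9 changed by -0.63 ± 0.10 (limma adjusted p = 1.90e-05). These 3 calls held with the 3' minus 5' index as a covariate. The index did not overlap between the groups compared (3.42 to 4.01 with estradiol and 2.00 to 2.19 without it). The covariate fit rests on its slope within groups and cannot decide the part of the index in these calls. The interaction of estradiol and ESR2 in hypoxia was called for 2 of the 9 genes higher and 3 lower, against 42% of all genes (23.4% higher and 18.6% lower), and in normoxia for 0 of 9 (0% of all genes), with 1 of 9 at an unadjusted p under 0.05.

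ASCL2 had 3.64, 3.40 and 3.54 in hypoxic ESR2+ cells with estradiol, against 3.21, 3.31 and 3.12 without it, and its 3 highest arrays of the series were these with estradiol. RNF43 had 4.62, 4.77 and 4.96 with estradiol, against 4.24, 4.31 and 4.44 without it, and these groups did not overlap either. NKD1 (0.38 ± 0.10), RNF43 (0.45 ± 0.10) and ASCL2 (0.31 ± 0.08) were called higher with estradiol in hypoxic ESR2+ cells, and none of these 3 calls held with the index as a covariate. With the covariate the changes of NKD1 (0.39, limma adjusted p = 0.0671) and ASCL2 (0.30, limma adjusted p = 0.0647) were about as large as without it, and that of RNF43 was 0.16 (limma adjusted p = 0.364). The other NKD1 probe set went the opposite way, at -0.30 (limma adjusted p = 0.0602 over all probe sets), and the mean of both was 0.04 (limma adjusted p = 0.652). For CD44 the brightest probe set differed by -0.11 ± 0.07 (limma adjusted p = 0.210; without hypoxic ESR2+ replicate 3 it was -0.19, limma adjusted p = 0.0207), while 7 other probe sets rose, by 0.66 to 1.59, and 1 fell (28.3% of every probe set called higher and 21.4% lower). The dimmest SOX9 probe set, 11720447_s_at, differed by 0.30 ± 0.20, opposite to the brightest. These values rest on the group whose arrays stood apart, and the part of RNA quality in them was not tested beyond this covariate. The covariate fit cannot decide it, since the index did not overlap between hypoxic ESR2+ cells with and without estradiol. The index is also not a measure of the cells' RNA alone.

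With estradiol in both arms the pattern of AXIN2 and ZNRF3 was not seen. AXIN2 differed between hypoxia and normoxia by -0.14 in ESR2+ cells (limma adjusted p = 0.263) and by -0.17 in WT cells (limma adjusted p = 0.216), with an interaction of 0.04 (limma adjusted p = 0.863). ZNRF3 differed by -0.18 in WT cells (limma adjusted p = 0.421), and the groups overlapped in these 3 comparisons. Hypoxia changed ZNRF3 in ESR2+ cells by -0.98 ± 0.15 (limma adjusted p = 5.62e-06), a sign opposite to that without estradiol. The brightest SOX9 probe set differed there by 0.01 (limma adjusted p = 0.966), but 1 of the 3 SOX9 probe sets was called higher, by 0.67 (limma adjusted p = 0.00985 over all probe sets). The mean of the 3 was higher by 0.30 (limma adjusted p = 0.0224). In WT cells with estradiol SOX9 rose by 1.84 ± 0.10 (limma adjusted p = 1.03e-12), and all 3 probe sets were called higher. ASCL2 rose in ESR2+ cells by 0.36 (limma adjusted p = 0.000616) and RNF43 by 0.39 (limma adjusted p = 0.00228), the RNF43 change being 0.20 with the index as a covariate (limma adjusted p = 0.144). Against WT cells in hypoxia with estradiol, ESR2+ cells had more AXIN2 signal by 0.65 ± 0.10 (limma adjusted p = 7.64e-06), and SOX9 differed by -0.95 ± 0.10 (limma adjusted p = 3.93e-08). With all arrays AXIN2 was thus called higher in ESR2+ than in WT cells under all 4 conditions, by the least in normoxia without estradiol. The call in normoxia without estradiol held in 8 of 17 alternatives. The ZNRF3 difference was -0.34 (limma adjusted p = 0.0629), and -0.55 with the index as a covariate (limma adjusted p = 0.0177).

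The other genes of the pathway were read from lists arranged by role, of which 117 genes were measured. Without estradiol, 33 were called higher and 8 lower in hypoxic ESR2+ cells, and 23 higher and 19 lower in hypoxic WT cells. Here and below, values of these pathway genes are for groups without estradiol unless estradiol is named. The counts of this list and of its parts by role are to be read against the shares of all genes: 14.4% of all genes were called higher and 18.2% lower in ESR2+ cells, and 16.4% higher and 21.2% lower in WT cells. Their median log2 change was 0.03 in ESR2+ cells and 0.04 in WT cells. Without WT normoxia replicate 2 the counts were 36 higher and 14 lower in ESR2+ cells (2949 and 3853 of all 18239 genes). In WT cells they were then 28 higher and 20 lower (3112 and 3731 of all genes). With estradiol, hypoxia gave 40 higher and 25 lower in ESR2+ cells (all genes 29.6% and 22.6%). In WT cells it gave 22 and 17 (16.1% and 18.7%). By role, higher and lower with estradiol in ESR2+ cells were 6 and 1 ligands, 4 and 5 receptors and 6 and 1 antagonists. The list of beta-catenin and its destruction complex had 5 and 8, nuclear partners 2 and 7, and other targets 17 and 3.

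Without estradiol, 1 of 23 ligands and secretion factors was higher and 2 were lower in hypoxic ESR2+ cells (all genes 14.4% and 18.2%). In hypoxic WT cells 5 were higher and 2 lower (16.4% and 21.2%). WLS, which carries Wnt proteins to the cell surface, rose by 1.54 in ESR2+ cells and by 1.13 in WT cells (limma log2 change, both called). WNT16, a Wnt ligand, averaged 7.67 ± 0.28 in hypoxic ESR2+ cells and 8.30 ± 0.03 in normoxic ESR2+ cells, but 7.90 ± 0.13 in hypoxic WT cells and 7.16 ± 0.25 in normoxic WT cells (SD, n = 3 each). Its interaction of -1.37 was called, so that this ligand went the opposite way to AXIN2 and ZNRF3. Among 17 receptors, 6 were higher and 2 lower in hypoxic ESR2+ cells (all genes 14.4% and 18.2%), against 4 higher and 4 lower in hypoxic WT cells (16.4% and 21.2%). FZD7, a Frizzled receptor, rose by 0.95 in ESR2+ cells and 0.51 in WT cells, and LGR4, which like LGR5 binds R-spondins, rose by 0.47 and 0.91. LGR4 was also higher in ESR2+ than in WT cells in normoxia without estradiol, by 1.18 ± 0.14 (SE, limma adjusted p = 1.83e-06). With estradiol LGR4 averaged 6.16 ± 0.05 in hypoxic and 6.46 ± 0.13 in normoxic ESR2+ cells (SD, n = 3 each). In WT cells with estradiol it averaged 6.19 ± 0.02 in hypoxia and 5.335 ± 0.09 in normoxia.

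Of 15 antagonists without estradiol, 4 were higher and 0 lower in hypoxic ESR2+ cells (all genes 14.4% and 18.2%). In hypoxic WT cells 3 were higher and 1 lower (16.4% and 21.2%). The one that fell was BAMBI, a pseudoreceptor of the TGF-beta family and a known beta-catenin target. It averaged 6.40 ± 0.10 in hypoxic ESR2+ cells and 5.45 ± 0.06 in normoxic ESR2+ cells, and 4.37 ± 0.09 in hypoxic WT cells and 5.13 ± 0.13 in normoxic WT cells (SD, n = 3 each). Among 20 genes of beta-catenin, its destruction complex and Dishevelled, 7 were higher and 3 lower in hypoxic ESR2+ cells (all genes 14.4% and 18.2%), against 4 higher and 4 lower in hypoxic WT cells (16.4% and 21.2%). CTNNB1, which encodes beta-catenin, changed by 0.15 ± 0.05 in hypoxic ESR2+ cells (limma adjusted p = 0.0378) and by -0.09 ± 0.05 in hypoxic WT cells (limma adjusted p = 0.234). AXIN1 and GSK3B were not called in any of the 4 comparisons without estradiol. APC was called in hypoxic ESR2+ cells without estradiol, where it fell by 0.31. With estradiol GSK3B averaged 6.81 ± 0.17 in hypoxic and 8.61 ± 0.12 in normoxic ESR2+ cells (SD, n = 3 each). In WT cells with estradiol GSK3B averaged 8.43 ± 0.07 and 8.20 ± 0.08. In ESR2+ cells with estradiol APC averaged 4.83 ± 0.38 in hypoxia and 4.51 ± 0.08 in normoxia, and AXIN1 4.74 ± 0.21 and 5.31 ± 0.07. TNKS, a tankyrase that marks AXIN proteins for degradation, rose without estradiol by 0.35 in ESR2+ cells and by 1.18 in WT cells.

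Of 15 nuclear partners without estradiol, 5 were higher and 0 lower in hypoxic ESR2+ cells (all genes 14.4% and 18.2%). In hypoxic WT cells 2 were higher and 4 lower (16.4% and 21.2%). EP300, a coactivator, rose by 0.78 in ESR2+ cells and fell by 0.87 in WT cells, with a called interaction of 1.65. TCF7L2, a TCF factor of colon epithelium, rose in both without estradiol, by 0.44 and 0.67. With estradiol it averaged 9.37 ± 0.03 in hypoxic and 10.20 ± 0.09 in normoxic ESR2+ cells (SD, n = 3 each). In WT cells with estradiol it averaged 10.71 ± 0.05 in hypoxia and 10.06 ± 0.03 in normoxia. Among 27 other reported targets, 10 were higher and 1 lower in hypoxic ESR2+ cells without estradiol (all genes 14.4% and 18.2%). In hypoxic WT cells without it 5 were higher and 4 lower (16.4% and 21.2%). JAG1, a Notch ligand, rose by 1.74 in ESR2+ cells and 1.67 in WT cells. Without estradiol MYC rose by 0.24 and 0.32. With estradiol MYC averaged 10.14 ± 0.11 in hypoxic and 10.66 ± 0.03 in normoxic ESR2+ cells (SD, n = 3 each). In WT cells with estradiol it averaged 11.21 ± 0.01 and 10.92 ± 0.04. CCND1, which encodes cyclin D1, was called for hypoxia in neither kind of cell without estradiol, and its normoxic WT arrays spread from 9.25 to 10.06. In hypoxia without estradiol CCND1 was higher in ESR2+ than in WT cells, by 0.60 ± 0.13 (SE, limma adjusted p = 0.000489). With estradiol CCND1 averaged 9.27 ± 0.04 in hypoxic ESR2+ and 9.56 ± 0.03 in hypoxic WT cells. In normoxia with estradiol it averaged 9.71 ± 0.04 and 10.18 ± 0.02.

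Without estradiol, AXIN2 and ZNRF3 were called lower in hypoxic WT cells, higher in hypoxic ESR2+ cells and called in the interaction. This made 2 of 9 target genes. The same held for 10 of the 117 other pathway genes (8.55%) and for 436 of all 18239 genes (2.39%). The 10 were FZD1, ROR2, BAMBI, GSK3A, DVL3, BCL9L, EP300, ETS2, SGK1 and ID2, and they were picked out after their values were seen. Without WT normoxia replicate 2, AXIN2 was the only one of the 9 left, and 9 of the 10 pathway genes remained, since BCL9L was then not called in WT cells. With 1 gene that newly met the pattern, 10 of 117 pathway genes (8.55%) had it, against 2.60% of all genes. DVL3, which encodes a Dishevelled protein, fell by 0.63 in hypoxic WT cells with all arrays and by 0.22 without that array. ID2, which encodes an inhibitor of helix-loop-helix factors, rose by 0.90 in ESR2+ cells and fell by 0.98 in WT cells, and SGK1, a kinase gene, rose by 0.92 and fell by 1.16. These counts are descriptions, since the lists and the pattern were chosen with these data known.

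**Figure D5:**
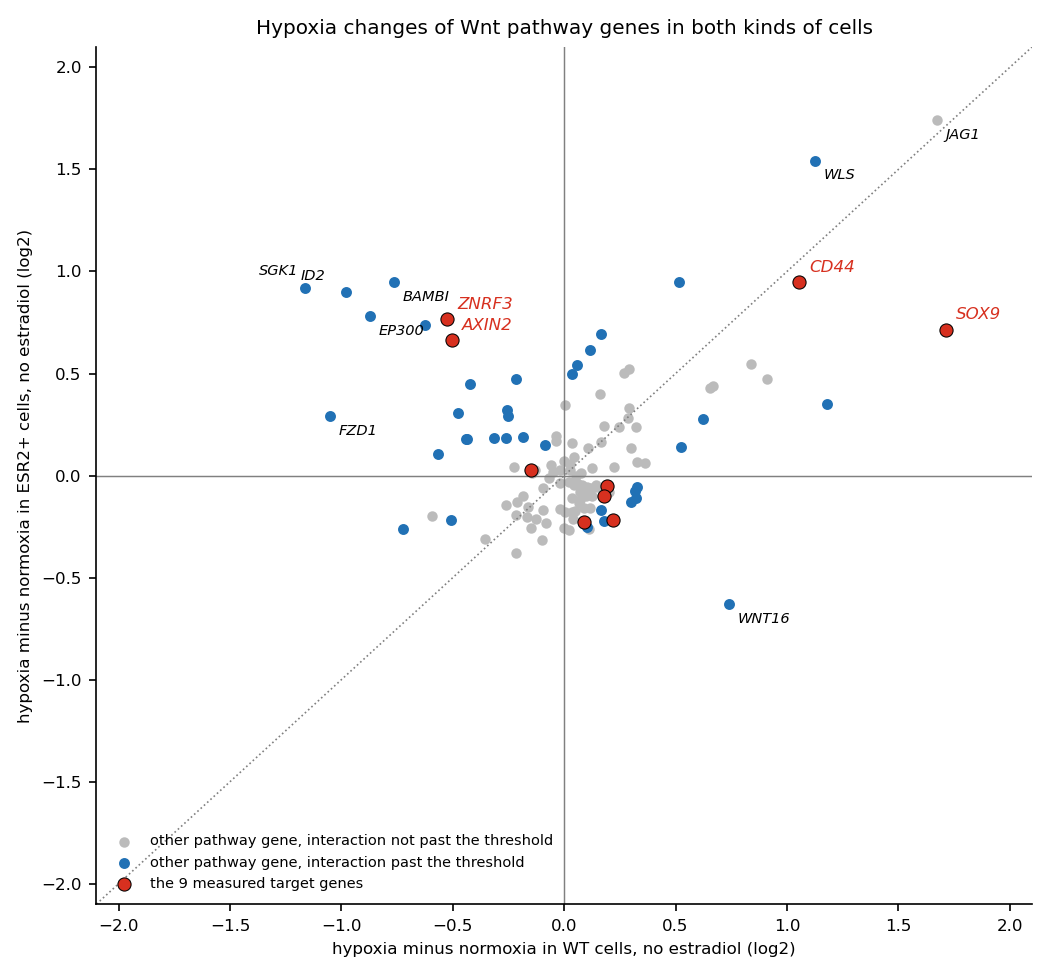
Log2 change in hypoxia without estradiol in ESR2+ cells (y axis) against WT cells (x axis) for the 9 target genes (red) and 117 other pathway genes (blue where the interaction was called, grey where not); the dotted line marks equal changes. AXIN2 and ZNRF3 lie in the upper left with BAMBI, ID2, SGK1, EP300 and FZD1, and WNT16 lies in the lower right.

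The order of the 8 group means differed between genes. AXIN2 was highest in hypoxic ESR2+ cells without estradiol, with no overlap with the next group. The 3 other ESR2+ groups followed and overlapped each other, and all lay above the 4 WT groups except that normoxic WT cells overlapped normoxic ESR2+ cells and hypoxic ESR2+ cells with estradiol. For SOX9 both hypoxic WT groups came first and overlapped each other, hypoxic ESR2+ cells without estradiol followed without overlap, the 3 remaining ESR2+ groups overlapped, and both normoxic WT groups came last. CD44 placed the 4 hypoxic groups, which overlapped, above the 4 normoxic ones. For LGR5, NKD1, RNF43 and LEF1 every group overlapped its neighbour in the order.

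Over the 8 group means, the genes most like each member were sought among 3846 genes whose means spanned at least 1 on the log2 scale. The 4 members that span as much were AXIN2, ZNRF3, CD44 and SOX9. AXIN2 was most like ZNF490 (Pearson r = 0.979), BRPF3 (0.977) and FAN1 (0.966), and ZNRF3 most like PIK3C2B (0.983), SLC46A1 (0.969) and KIAA0513 (0.963). CD44 was most like SLC9A3-AS1 (0.995), ZNF160 (0.994) and LTA4H (0.994), and SOX9 most like CPS1 (0.986), PIGF (0.979) and FA2H (0.979). The 8 points share their arrays and normalization, and the genes were selected for their high r, so no test is given.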

How the data were processed

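The deposited table holds log2 signals of 49386 probe sets on 24 arrays, made by the authors with RMA (background correction, quantile normalization and probe summary) from the affy package, per the submitters' processing notes. Which versions were run is not stated there. The median signal of an array was 4.07 to 4.13, and 0 columns of per-sample values were not used. RNA was labelled by in vitro transcription from the 3' end, per the labels' protocols.

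Of the probe sets, 93 were controls, 45253 had 1 gene symbol in the platform annotation, 1327 had several and 2713 had none. The brightest probe set stood for each of 18239 genes, 11822 of which had more than 1. TCF7 had no probe set with a single symbol. limma 3.58.1 in R 4.3.3 fitted 1 mean per group over all 24 arrays (16 residual degrees of freedom), with Benjamini-Hochberg adjustment over all genes in each of 16 comparisons. An adjusted p under 0.05 was a call, and the ± after a change is its SE. The code was tested on simulated data. The 3 arrays per group limit the precision.

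The members, the pathway lists by role and the tests were chosen with earlier results of these data known. Besides the members, the text names core pathway genes and up to 4 called genes with the largest changes per list in the comparisons without estradiol, and 3 most alike genes per member. Replicate numbers are shared between groups. In 0 of 12 comparisons were all correlations of same-numbered arrays over 0.1 (range -0.288 to 0.287). This rule cannot show that same-numbered arrays are unrelated. Alternatives were other normalizations, probe set rules, priors, weights, covariates, blocks and the omission of each array. 1 fit without the hypoxic ESR2+ estradiol group was added after seeing the data.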

Additional observations from a re-analysis of the deposited data

Results flagged for a closer look

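The response to hypoxia differed between ESR2+ and WT cells by a limma interaction test for several genes, each value being the ESR2+ change minus the WT change in log2. Without estradiol the interaction was 1.17 for AXIN2 (limma adjusted p = 9.19e-07), 1.29 for ZNRF3 (limma adjusted p = 3.65e-05) and -1.0 for SOX9 (limma adjusted p = 1.09e-05). AXIN2 and ZNRF3 rose in ESR2+ and fell in WT cells, while SOX9 rose in both, less in ESR2+ cells. With estradiol it was 0.35 for ASCL2 (limma adjusted p = 0.0154), 0.40 for RNF43 (limma adjusted p = 0.028), -0.80 for ZNRF3 (limma adjusted p = 0.00354) and -1.83 for SOX9 (limma adjusted p = 5.86e-10). The ASCL2 value was 0.22 after a further quantile normalization (limma adjusted p = 0.146) and 0.27 without normoxic WT replicate 2 with estradiol (limma adjusted p = 0.0609). The RNF43 value passed in 15 of 22 alternatives and was 0.028 with the mean of its probe sets (limma adjusted p = 0.762). It was 0.31 to 0.38 in the 5 fits without 1 array that lost it: without replicate 1 of normoxic WT, 3 of hypoxic WT, 2 or 3 of normoxic ESR2+ or 3 of hypoxic ESR2+ cells, all with estradiol. The sign for ZNRF3 was thus opposite with and without estradiol.

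The response to estradiol in hypoxia also differed between ESR2+ and WT cells. The interaction was -0.81 for AXIN2 (limma adjusted p = 8.26e-05), 0.41 for NKD1 (limma adjusted p = 0.0298), 0.58 for RNF43 (limma adjusted p = 0.00236), -1.79 for ZNRF3 (limma adjusted p = 3.56e-07) and -0.60 for SOX9 (limma adjusted p = 0.00214). The SOX9 value was called in 1 of 3 probe sets, with another at 0.60 (limma adjusted p = 0.112 over all probe sets), and the mean of probe sets gave -0.09 (limma adjusted p = 0.66). The NKD1 value was lost in 6 of the 12 fits without 1 array (0.33 to 0.40): those without WT replicate 3 with or without estradiol, ESR2+ replicate 1 or 2 without it or ESR2+ replicate 2 or 3 with it, all hypoxic. It was also lost with the mean of probe sets (0.08, limma adjusted p = 0.567). With estradiol, all of these values rest on the hypoxic ESR2+ group whose arrays had a 3' minus 5' index of 3.42 to 4.01. With that index as a covariate, RNF43 with estradiol was 0.21 (limma adjusted p = 0.268), NKD1 for estradiol was 0.41 (limma adjusted p = 0.0917) and RNF43 for estradiol was 0.32 (limma adjusted p = 0.113). Groups of 3 arrays were too small for a test of single outlying samples.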

How the results depend on the processing

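The calls for hypoxia without estradiol of AXIN2, CD44 and SOX9 in both kinds of cells, and of ZNRF3 in ESR2+ cells, held in all 17 alternatives, and that of ZNRF3 in WT cells in 15. The AXIN2 rise in ESR2+ cells shrank to 0.16 when its probe sets, dim ones included, were averaged. With the arrays quantile normalized again, ASCL2 changed by 0.13 with estradiol in hypoxic ESR2+ cells (limma adjusted p = 0.232). Of all values of single genes under an alternative, 2472 kept direction and side of the threshold, 55 passed it newly, 51 were lost and 9 reversed. All 9 reversals came from averaging a gene's probe sets, which puts the disagreeing probe sets into the value. ESR2+ against WT cells then gave RNF43 0.29 in normoxia, 0.26 in normoxia with estradiol and 0.079 in hypoxia, and CD44 -0.18, -0.25 and -0.69. Estradiol in hypoxic ESR2+ cells gave CD44 0.69, and the CD44 interactions were 0.34 (hypoxia and ESR2 with estradiol) and 0.78 (estradiol and ESR2 in hypoxia). That setting also gave 5 called genes for ESR2+ against WT cells in normoxia with estradiol (3 otherwise), 5 in hypoxia with estradiol (3 otherwise) and 5 for the interaction without estradiol (3 otherwise).

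For ESR2+ against WT cells in normoxia without estradiol, 1 gene was called, not 3, with arrays centred on their medians or with only the groups compared, and 5 with array weights. Array weights also gave 8 calls, not 4, for hypoxia in WT cells, 8, not 3, for the interaction, and 1, not 0, for estradiol in normoxic WT cells. With the 3' minus 5' index as a covariate, estradiol in hypoxic ESR2+ cells had 3 calls, not 6, and its interaction with ESR2 had 3, not 5. The cause of these shifts was not tested. Leaving out each array in turn gave 1 to 2 calls in normoxia without estradiol (ESR2+ against WT), 3 to 6 for the interaction without estradiol and 3 to 5 for ESR2+ against WT in hypoxia with estradiol. The replicate block, on numbers that are shared only by label, left 2 of those 3 normoxic calls, since CD44 was then at 0.22 (limma adjusted p = 0.0523), and changed no other count. Leaving out the hypoxic ESR2+ estradiol group, chosen after seeing the data, changed no call in the comparisons that do not use it. The comparisons that use this group could not be fitted without it, so their calls were not tested in this way.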
